A study of Sus scrofa with 4 samples.

Results

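The insulin-like growth factor (IGF) axis was examined in fibroblasts grown from healing skin wounds of Duroc pigs, a red breed used as a model of thick scarring. The 10 genes considered were the ligands IGF1 and IGF2, the receptors IGF1R and IGF2R, and the binding proteins IGFBP2, IGFBP3, IGFBP4, IGFBP5, IGFBP6 and IGFBP7. They were found by gene symbol in the annotation of the array, and 7 of the 10 had at least 1 probeset that carried their symbol and no other, among 6765 genes named in this way. IGFBP3, IGFBP4 and IGFBP7 had none and were not analysed here. The 7 measured genes had 23 probesets in all, and each gene was represented by its brightest one over the 4 arrays. Their NCBI gene numbers are 397491 (IGF1), 396916 (IGF2), 397350 (IGF1R), 397214 (IGF2R), 397064 (IGFBP2), 397182 (IGFBP5) and 100101923 (IGFBP6).

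Deep and shallow wounds had been made on the backs of the same 2 pigs, and each was biopsied 20 weeks later. Cells were grown out in medium with fetal bovine serum, and total RNA from confluent dishes of what the labels call dermal cone fibroblasts was read on a pig Affymetrix array. There were 2 arrays of deep-wound fibroblasts and 2 of shallow-wound fibroblasts, 1 of each from each animal, with no unwounded skin and no added treatment. The titles tie each deep array to a shallow array by sample number, which was read here as the order of listing. The arrays of each tied pair are called pig 1 and pig 2. Values are MAS5 signals, a linear intensity with no read depth behind it, so precision is set by there being 4 arrays. Because the cells had been cultured, the values describe confluent cultures and not the wound tissue, and in bulk RNA a change in the number of cells of a type and a change in RNA per cell cannot be told apart.

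IGF1 and IGF2 are small secreted proteins that drive growth, survival and matrix synthesis through the tyrosine kinase receptor IGF1R. IGF2R has no such kinase; it takes IGF2 into the cell for breakdown and carries mannose 6-phosphate-tagged enzymes to lysosomes. IGF binding proteins hold IGFs outside the cell, lengthen their life and limit or deliver them to the receptor, and some of them also bind matrix or cell surfaces. Fibroblasts of the dermis are a local source of IGF1 and of several binding proteins.

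The cultures carried the marks of dermal fibroblasts on all 4 arrays. Of 17 fibroblast markers 13 had a probeset, and their summed signal was 67409 and 104611 on the deep arrays of pig 1 and pig 2, against 41895 and 49237 on the shallow arrays. For all 13 each deep value exceeded each shallow value, as for 23.2% of all probesets tested, with log2 differences between 0.59 and 1.98 (median 0.96), and none passed the test used below (limma, smallest adjusted p = 0.072). Of 13 epithelial markers measured, 11 were highest on the shallow array of pig 1, and their sum was 422 and 319 on the deep arrays and 8846 and 374 on the shallow arrays. Control probesets also differed. The 28S ribosomal RNA controls averaged 3462 and 7621 on the deep arrays and 1351 and 1836 on the shallow arrays. The 3′ to 5′ ratio of the actin probesets was 3.28 and 6.10 on the deep arrays and 1.96 and 2.41 on the shallow arrays. That ratio was closer between depths for the GAPDH probesets, at 1.75 and 2.06 in deep and 1.53 and 1.67 in shallow. The geometric mean of the hybridization controls was 1815 and 4396 on the deep arrays and 1326 and 1535 on the shallow arrays. Of 5 smooth muscle and pericyte markers past the filter on dim probesets 1 was called, ACTG2, beside 0.236% of all probesets tested called higher. ACTG2 read 4269 and 2914 in deep and 492 and 717 in shallow cultures. Both deep arrays were above both shallow arrays for 2 of the 5, ACTG2 and CNN1, beside 23.2% of all probesets tested. CNN1 read 193 and 154 in deep and 79.3 and 62.2 in shallow cultures (limma, adjusted p = 0.155). The depths overlapped for 3 of the 5, RGS5 and MCAM among them. ACTG2 made up most of the list's sum of 4792 and 3504 in deep and 734 and 1211 in shallow cultures. Of the leukocyte markers 1 of 11 measured passed that filter, and of the fat cell markers 1 of 6. Of the endothelial markers 4 of 10 measured passed it. The 10 summed to 438 and 605 on the deep arrays and 843 and 355 on the shallow arrays. Of the 10, 2 were highest on the shallow array of pig 1, CLDN5 and PECAM1. PECAM1 read 223 and 281 in deep and 601 and 152 in shallow cultures.

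Deep-wound fibroblasts had more messenger RNA of the binding protein IGFBP2 than shallow-wound fibroblasts, in both pigs and by a similar amount. IGFBP5, IGF1 and IGF1R also read higher on both deep arrays than on both shallow arrays, but none of these 3 passed the test. IGF2, IGF2R and IGFBP6 had no shared direction in the pigs. Among the 7 measured genes 1 rose and 0 fell past an adjusted p of 0.05 (limma over 14399 probesets, with the pig as a block), where 0.236% of all probesets tested were called higher and 0.104% lower. Both deep arrays lay above both shallow arrays for 4 of the 7, as they did for 23.2% of all probesets tested, and both lay below for 0 of the 7, against 25.5% of all. The median log2 difference of the 7 genes was 0.93, beside -0.02 over all probesets tested and 0.96 over the fibroblast markers above. The ribosomal, hybridization, actin and GAPDH control values given above were also higher on both deep arrays than on both shallow arrays. So was the highest control for an absent transcript. The part of these controls, and of the fibroblast and epithelial signals, in the differences of the 7 genes was not tested.

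**Figure D1:**
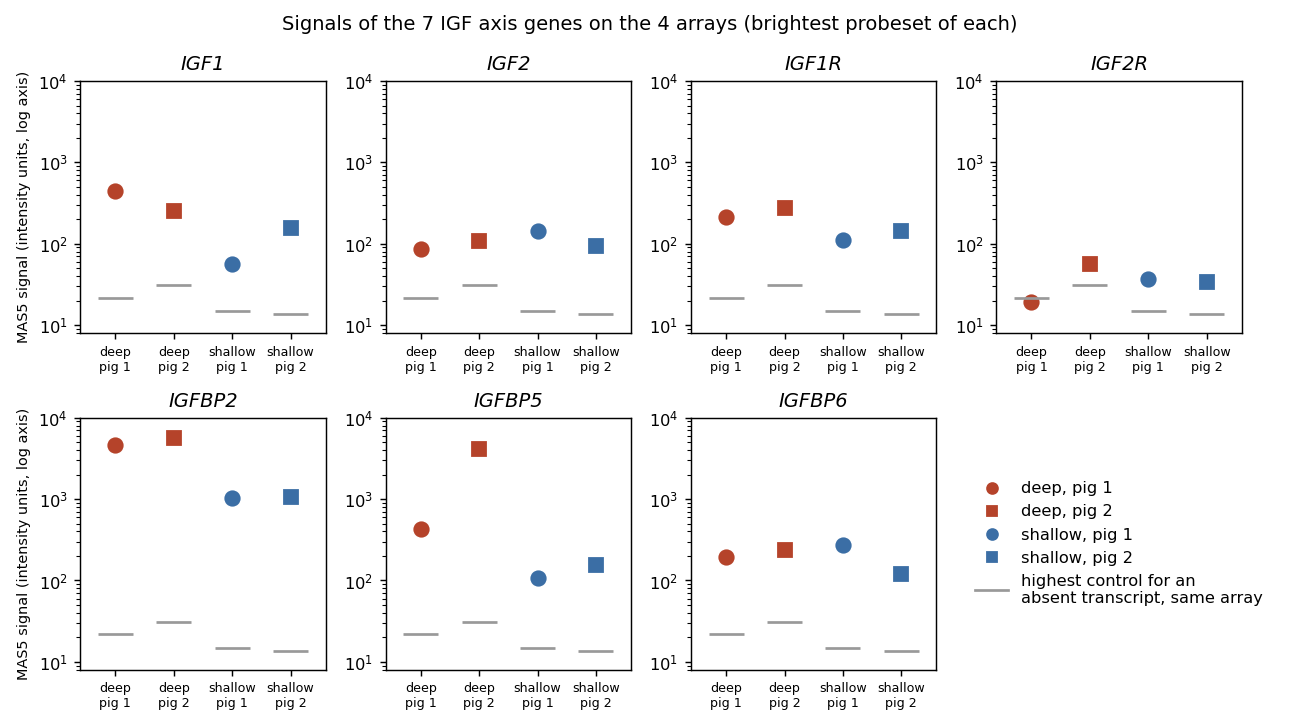
MAS5 signal of each of the 7 IGF axis genes on the 4 arrays (log axis, intensity units), deep in red and shallow in blue, with a grey bar for the highest control for an absent transcript on the same array. IGFBP2 separates the depths with little scatter (4604 and 5697 against 1044 and 1068), IGFBP5 is far highest on the deep array of pig 2 (4181), and IGF2R on the deep array of pig 1 (19.4) lies under the grey bar.

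IGFBP2 binds both IGFs and can attach to integrins and to matrix glycosaminoglycans. Its probeset gave a signal of 4604 in pig 1 and 5697 in pig 2 for deep cultures and of 1044 and 1068 for shallow cultures. The groups did not overlap, and the shallow arrays were nearly equal. The means were 5151 ± 772 in deep and 1056 ± 16.6 in shallow cultures (SD, n = 2 each), and the rise was 4.41-fold in pig 1 and 5.33-fold in pig 2. The log2 difference was 2.28 ± 0.27 (SE; 95% interval 1.65 to 2.90; limma, adjusted p = 0.0301). No other probeset on the array was assigned to IGFBP2. The size of the difference changed little when 1 array was left out, with log2 differences from 2.12 to 2.43. The call was less stable than the size. This fit has a single residual degree of freedom. In a single run of data simulated with independent noise and no difference between pigs it made more false calls than its 5% threshold allows. A single run does not measure the rate of false calls, but the adjusted p may be too small. The call held with pairs crossed between pigs (limma, adjusted p = 0.00983), quantile normalization (0.017), median centring (0.0313) and the log2(signal + 16) scale (0.0169). It was lost without the pig as a block (limma, adjusted p = 0.0597) and without the filter on dim probesets (adjusted p = 0.21). It was also lost when either deep array was left out (limma, adjusted p = 0.15 without pig 1 and 0.628 without pig 2), in fits that have no block and assume that the lone deep array varies like the shallow ones. Without the shallow array of pig 1, which held the epithelial signal, the difference was 2.26. That fit likewise has no block and a lone shallow array.

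IGFBP5 is a matrix-associated binding protein that fibroblasts secrete and that has been linked to fibrosis. Its probeset gave 429 in pig 1 and 4181 in pig 2 for deep cultures and 106 and 153 for shallow cultures. Both deep arrays were above both shallow arrays, but the deep arrays differed from each other more than the shallow arrays did from the deep array of pig 1. The difference was 4.03-fold in pig 1 and 27.3-fold in pig 2, and the mean log2 difference of 3.39 ± 0.56 (95% interval 2.09 to 4.69) did not pass (limma, adjusted p = 0.0616). Leaving out the pig 2 deep array gave 1.75, and leaving out the pig 1 deep array gave 5.03. Leaving out the shallow array of pig 1 gave 3.13, and leaving out that of pig 2 gave 3.65. IGFBP5 was called without either shallow array and not without either deep array. These fits have no block and a lone array of 1 depth. With each shallow array set against the deep array of the other pig the adjusted p was 0.04, and it was 0.0438 with quantile normalization and 0.0383 on the log2(signal + 16) scale (limma). It was 0.0543 with median centring, 0.253 with no block and 0.275 with no filter (limma). The deep array of pig 2 was also the one with the highest ribosomal, hybridization, actin and GAPDH control values given above. IGFBP2, IGF1R and IGF2R were highest on that array too. The part of the controls in these signals and in that of IGFBP5 was not tested.

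At least a 2-fold higher signal in deep in both pigs was found for 2 of the 7 genes, IGFBP2 and IGFBP5, and for 2.19% of all probesets tested. These genes are next to each other in the pig genome: in the RefSeq annotation of the Sscrofa11.1 assembly no other gene is listed between them. Their profiles over the arrays lay 2.41 apart on the distance described further on, where IGF1 and IGFBP2 lay 1.36 apart.

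**Figure D2:**
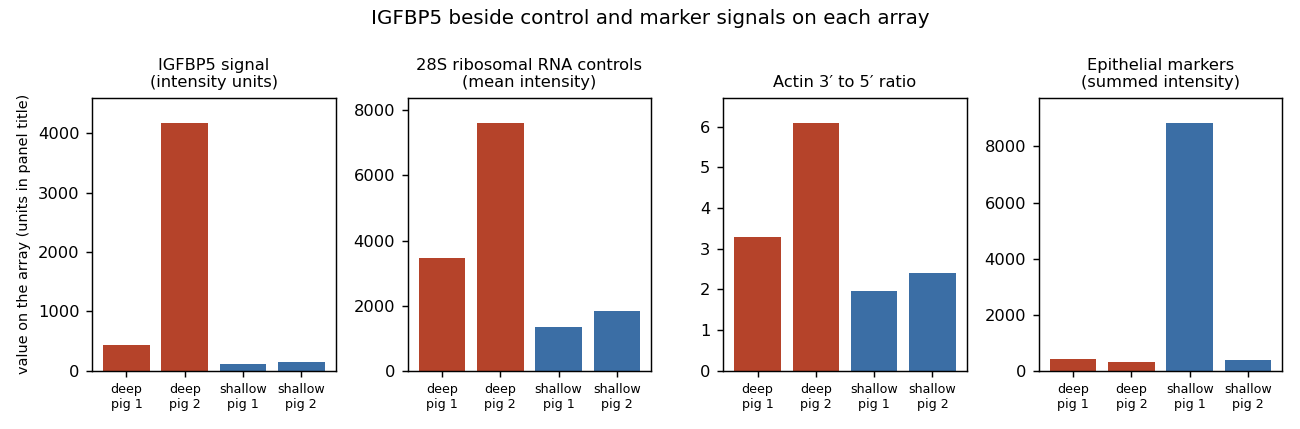
IGFBP5 signal beside the mean of the 28S ribosomal RNA controls, the actin 3′ to 5′ ratio and the summed signal of 13 epithelial markers on each array (bars from 0, deep in red, shallow in blue). The first 3 are highest on the deep array of pig 2 (4181, 7621 and 6.10), and the epithelial sum is highest on the shallow array of pig 1 (8846).

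IGFBP6, which binds IGF2 in preference to IGF1, showed no difference by depth beyond its spread. Its brightest probeset gave 195 and 235 on the deep arrays and 275 and 120 on the shallow arrays. The shallow arrays held both the highest and the lowest value, so that the groups overlapped. The log2 difference was -0.49 in pig 1 and 0.97 in pig 2, with a mean of 0.24 ± 0.40 (95% interval -0.68 to 1.16; limma, adjusted p = 0.839). A second IGFBP6 probeset, with 109 and 107 in deep and 124 and 58.0 in shallow cultures, also had opposite signs in the pigs. The width of the interval means that equal levels were not shown.

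Of the ligands, IGF1 read higher in deep cultures on every probeset that carried its name. The brightest had 448 in pig 1 and 255 in pig 2 for deep cultures and 56.5 and 157 for shallow cultures. The lower deep array was above the higher shallow array, with the 2 arrays of pig 2 the closest to each other. The deep signal was 7.93-fold that of shallow in pig 1 and 1.63-fold in pig 2, a mean log2 difference of 1.85 ± 0.51 (95% interval 0.67 to 3.02; limma, adjusted p = 0.172). The second probeset read 333 and 206 in deep and 24.5 and 103 in shallow cultures, a log2 difference of 2.38 ± 0.59 (limma, adjusted p = 0.141). The third was dim and did not pass the filter, at 32.8 and 31.2 in deep and 2.32 and 3.87 in shallow cultures, where both shallow values lay below the highest control for an absent transcript. Its deep value in pig 2 was close to that control on the same array, 30.9. Both deep arrays were above both shallow arrays on 3 of 3 IGF1 probesets, the dim one included, beside 23.2% of all probesets tested. Probesets of 1 gene read the same RNA and are not independent of one another.

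IGF1 was lowest on the shallow array of pig 1, where the epithelial markers were highest, and the part of those cells in its value was not tested. Leaving that array out gave a log2 difference of 1.11, and leaving out the pig 2 shallow array gave 2.58. Fits with 1 array left out have no block and a lone array of 1 depth. Leaving out the deep array of pig 1 gave a log2 difference of 1.44, and leaving out that of pig 2 gave 2.25. Pairing the arrays across pigs gave an adjusted p of 0.0264, while it was 0.265 with no block and 0.41 with no filter (limma).

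IGF2, the ligand that is most abundant before birth, had 13 probesets, most of them near background. Its brightest read 85.1 and 107 on the deep arrays and 143 and 94.9 on the shallow arrays. The groups overlapped, and the highest value was on the shallow array of pig 1. The mean log2 difference was -0.29 ± 0.38 (95% interval -1.16 to 0.59; limma, adjusted p = 0.794), with -0.75 in pig 1 and 0.18 in pig 2. Of the 13 probesets, 3 passed the filter on dim signals, and 10 lay below the highest control for an absent transcript on at least 1 array. The other 2 that passed disagreed in direction. One read 57.4 and 37.5 in deep and 88.1 and 89.0 in shallow cultures, a log2 difference of -0.93 ± 0.40 (limma, adjusted p = 0.356). The other read 32.1 and 40.6 in deep and 32.0 and 33.3 in shallow cultures, a difference of 0.14. Over all 13, deep was higher in both pigs for 8, lower in both for 2 and opposite in the pigs for 3. Both deep arrays were above both shallow arrays for 5 of the 13 and below for 2, beside 23.2% and 25.5% of all probesets tested. The highest control for an absent transcript was itself higher in deep, at 21.8 and 30.9, than in shallow cultures, at 14.8 and 13.6. The part of background in these counts was not tested.

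**Figure D3:**
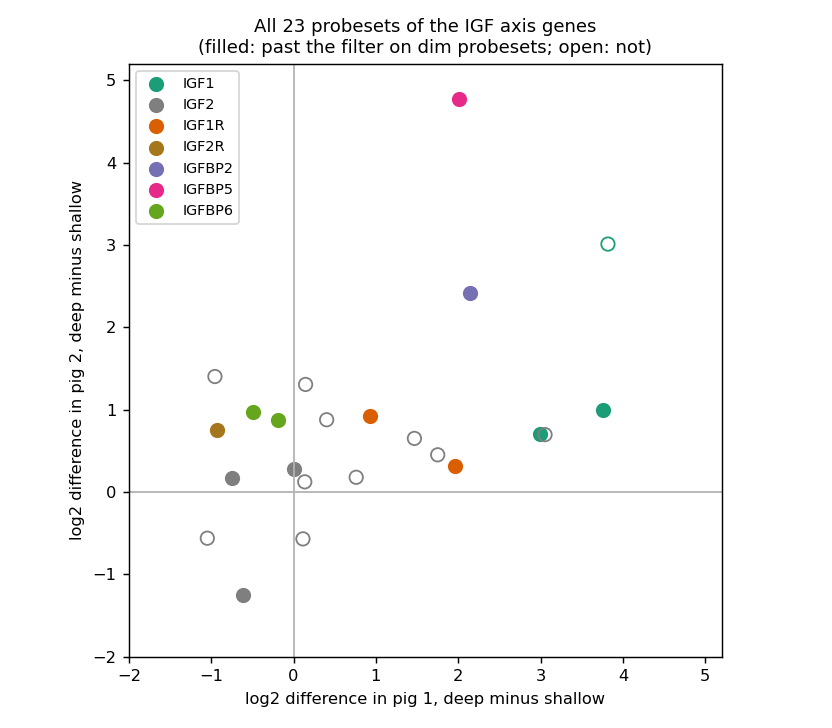
Log2 difference, deep minus shallow, in pig 1 (horizontal) and pig 2 (vertical) for all 23 probesets of the 7 genes; filled points passed the filter on dim probesets and open points did not. The IGF1, IGF1R, IGFBP2 and IGFBP5 probesets lie above 0 in both pigs, and the 13 IGF2 probesets are spread over both signs, with 8 above 0 in both pigs and 2 below. Of the 13 IGF2 probesets only 3 passed the filter, and the highest control for an absent transcript was higher on the deep arrays.

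Of the receptors, IGF1R, the kinase that both ligands signal through, read higher on both deep arrays. Its brightest probeset had 210 and 274 on the deep arrays and 111 and 144 on the shallow arrays. The groups did not overlap, and the ratio was 1.90-fold in each pig. The log2 difference was 0.93 ± 0.31 (95% interval 0.21 to 1.64) and did not pass over all probesets (limma, adjusted p = 0.239). The second IGF1R probeset read 125 and 83.8 in deep and 32.1 and 67.5 in shallow cultures, again without overlap, with a log2 difference of 1.13 ± 0.48 (limma, adjusted p = 0.349). Leaving out 1 array gave 0.73 to 1.12 for the brightest probeset. The call was made only without the shallow array of pig 2, in a fit with no block and a lone shallow array.

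IGF2R, the scavenger of IGF2, was dim. Its probeset read 19.4 and 57.0 on the deep arrays and 36.8 and 33.8 on the shallow arrays, and the deep arrays held both the lowest and the highest value. The lowest was below the highest control for an absent transcript on that array, 21.8. The mean log2 difference was -0.09 ± 0.54 (95% interval -1.34 to 1.17; limma, adjusted p = 0.967), with -0.93 in pig 1 and 0.75 in pig 2. At this signal no difference by depth was detectable, and the interval does not show equal levels.

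**Figure D4:**
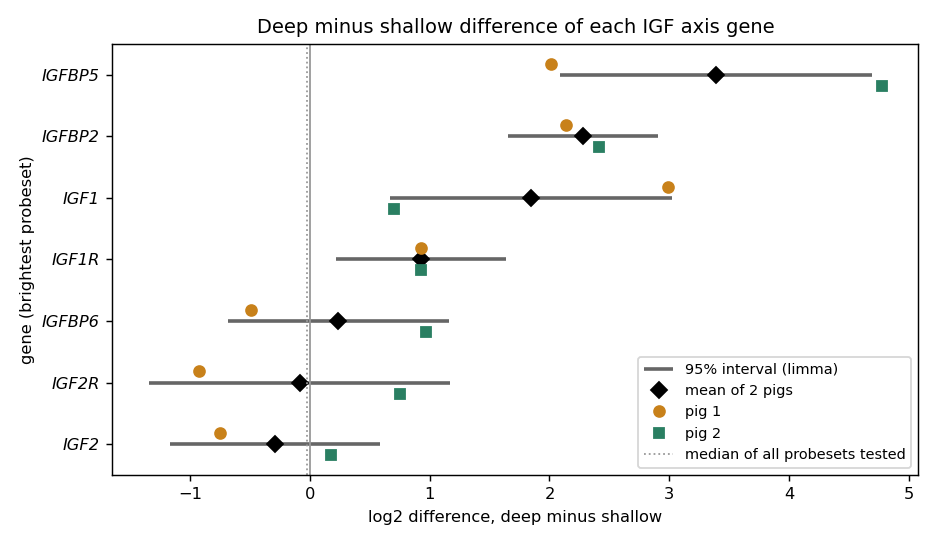
Log2 difference, deep minus shallow, for the 7 genes: the mean of the pigs with its 95% interval from limma, and the value in each pig. The intervals of IGFBP5, IGFBP2, IGF1 and IGF1R lie above 0 before any adjustment for the 14399 probesets tested, and those of IGFBP6, IGF2R and IGF2 include 0.

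Across arrays, 4 of the 7 genes were highest on the deep array of pig 2 and 4 were lowest on the shallow array of pig 1. IGF1 was highest on the deep array of pig 1. IGF2 and IGFBP6 were highest on the shallow array of pig 1. Leaving out an array can only add to the genes whose depths do not overlap, so such counts, made after the data had been seen, say nothing of stability. There were 5 of 7 such genes without the deep array of pig 1, with IGF2R added, beside 37.3% of all probesets tested. There were also 5 of 7 without the shallow array of pig 1, with IGFBP6 added, beside 32.0% of all.

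Genes whose profile over the 4 arrays was most like that of a binding protein were sought by distance between log2 signals, each centred on its own mean, among 5272 named genes. Nearest to IGFBP2 was ADORA1, an adenosine receptor, at a distance of 0.21, with signals of 114 and 116 in deep and 23.8 and 24.4 in shallow cultures. PPP1R3B, a glycogen-targeting phosphatase subunit, and COL8A1, a short-chain collagen, followed at 0.44 and 0.48. Nearest to IGFBP5 was the tight junction gene CLDN11, at a distance of 0.65, with 52.2 and 293 in deep and 10.1 and 18.5 in shallow cultures. Its value of 10.1 lay below the highest control for an absent transcript on that array, 14.8, so its distance and rank rest in part on a background signal. The ferritin receptor SCARA5 and the proteoglycan ASPN followed at 1.46 and 1.55. Among the IGF axis genes themselves IGFBP2 lay closest to IGF1 and IGF1R (1.36 and 1.37), and IGF2 closest to IGFBP6 (0.67). With 4 arrays these distances describe the libraries only.

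The wider IGF pathway showed no called gene. Of 102 genes in 8 lists that act around the axis, 52 had a probeset and 42 passed the filter, and 0 of the 42 rose or fell, against 0.236% and 0.104% of all probesets tested (limma with the pig as a block, smallest adjusted p = 0.0968). Their median log2 difference was 0.06. Both deep arrays were above both shallow arrays for 14 of the 42 and below for 8, beside 23.2% and 25.5% of all probesets tested.

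Proteases that cut IGF binding proteins, and their inhibitors, had the widest range of differences. For 5 of the 9 past the filter both deep arrays were above both shallow arrays, beside 23.2% of all probesets tested, and the median was 0.50. MMP2, a gelatinase that also cleaves binding proteins, read 1829 and 3698 in deep and 774 and 1555 in shallow cultures. The log2 difference was 1.25 ± 0.26 and was alike in the pigs (limma, adjusted p = 0.0968). HTRA1, a secreted serine protease with an IGFBP-like domain, read 4863 and 7292 in deep and 2675 and 3332 in shallow cultures, a log2 difference of 1.00 ± 0.28 (limma, adjusted p = 0.176). PAPPA, the metalloprotease of IGFBP4 and IGFBP5, was dim at 36.3 and 40.8 in deep and 27.4 and 27.0 in shallow cultures. Its inhibitor STC1, stanniocalcin, differed in opposite directions, with 375 and 32.9 in deep and 183 and 508 in shallow cultures. ADAM9, a membrane metalloprotease, read lower on both deep arrays, with a log2 difference of -0.89 ± 0.32 (limma, adjusted p = 0.269).

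Genes that carry the signal inside the cell had differences of both signs, and none passed the test. The median log2 difference was 0.02 over 8 receptor adaptors, -0.02 over 7 genes of the PI3K, AKT and mTOR branch and 0.26 over 3 of the RAS and MAPK branch. GRB10, an adaptor that restrains IGF1R and the insulin receptor, read 675 and 840 in deep and 398 and 504 in shallow cultures, and the log2 difference was 0.75 ± 0.27 (limma, adjusted p = 0.269). GAB1, a docking protein, and CRK, an adaptor, differed by 0.70 and -0.30. In the PI3K branch TSC2, RHEB and PDPK1 differed by 0.60, 0.35 and -0.34, and AKT1 read 555 and 597 in deep and 606 and 580 in shallow cultures. In the MAPK branch MAPK3, ARAF and MAP2K2 differed by 0.35, 0.26 and -0.22. The insulin receptor INSR, which shares ligands with IGF1R, read 23.3 and 41.7 in deep and 31.4 and 24.8 in shallow cultures.

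The growth hormone axis, which controls IGF1 in liver, had 3 genes past the filter, and the hormone's receptor GHR was below the highest control for an absent transcript on all 4 arrays. STAT5A, STAT5B and JAK2 differed by 0.64, 0.37 and -0.48. CRIM1, a membrane protein with an IGFBP-like motif, differed by 0.31, and TMEM219, a receptor for IGFBP3, by 0.09. Insulin (INS) and IGFALS, the partner of IGF and IGFBP3 in serum, were below the highest control for an absent transcript on all 4 arrays. Of the regulators of the IGF2 locus and of IGF mRNA, HMGA1 read 205 and 376 in deep and 1208 and 294 in shallow cultures, with its peak where the epithelial markers peaked, and CTCF differed by -0.44. On the list of IGF2R partners, most of them lysosomal sorting genes, both deep arrays were below both shallow arrays for 2 of 8 and above for 0, beside 25.5% and 23.2% of all probesets tested. These 2 were NAGPA, which uncovers the mannose 6-phosphate tag, with a log2 difference of -0.75, and PLAU, the secreted plasminogen activator urokinase and not a sorting gene, with -0.45. GNPTG, a subunit of the enzyme that makes the tag, differed by 0.24.

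**Figure D5:**
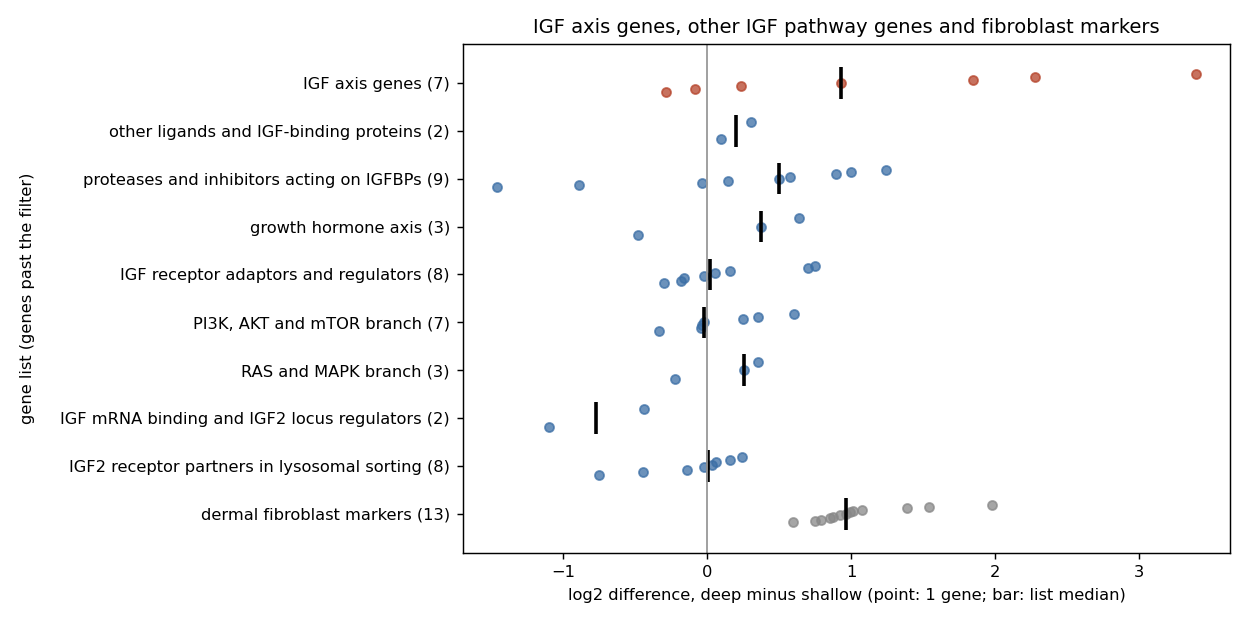
Log2 difference, deep minus shallow, of each gene past the filter (point) and the median of each list (bar) for the 7 IGF axis genes, the 8 pathway lists and the 13 dermal fibroblast markers. The IGF axis spans -0.29 to 3.39 with a median of 0.93, the lists of adaptors and the PI3K branch centre near 0, and the fibroblast markers lie between 0.59 and 1.98.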

How the data were processed

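Array signals of 2 deep-wound and 2 shallow-wound fibroblast cultures were compared. Per the submitters' processing notes the authors made the deposited intensity values with MAS5 and GCOS 1.0; the sources used here do not give the scan settings, scaling target or genome build. The deposited linear intensities had equal means without the top and bottom 2% of probesets (250.1 on each array). The table held no detection calls, so 23 control probesets for absent transcripts marked background. The 124 control probesets were left out, signals under 1 were set to 1 (2547 of 95996 values), log2 was taken, and the dimmest 40% of the 23999 probesets by mean log2 (signal below 27.1) were dropped, leaving 14399 to test. Symbols came from the platform annotation, in which 10069 probesets have 1 symbol, 198 have several and 13732 are unnamed.

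R 4.3.3 with limma 3.58.1 (lmFit, then eBayes with trend) compared deep with shallow, keeping pig as a block. Benjamini-Hochberg adjustment ran over all 14399 p-values. The series describes both wounds on the same animals, hence the block. Same-pig arrays did not deviate together from their depth means (correlation -0.01 across probesets). With the block 1 residual degree of freedom is left, and moderation added 6.88. An exact permutation test of 2 against 2 arrays cannot reach 0.05 and was not used. Nothing says whether each array is more than 1 culture, so p-values measure the spread between these arrays. The fit was tested on a single run of data simulated with independent noise and no difference between pigs. It gave nearly all changed probesets the right sign but made false calls above the nominal 5% rate. A single run does not measure that rate, but adjusted p-values near 0.05 may be too small.

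Alternatives were no block, crossed pairs, no filter, quantile normalization, median centring, log2(signal + 16), other probesets, and each array left out in turn without the block. All members, and of each pathway list genes past the threshold and up to 3 with the largest difference, were named, with PAPPA, ADAM9, AKT1, INSR, GHR, INS and IGFALS added for their role after values were seen. Members and lists were chosen with earlier results of these data known.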

Additional observations from a re-analysis of the deposited data

How the results depend on the processing

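Calls depended on the processing, while the sizes of the IGFBP2, IGFBP5, IGF1 and IGF1R differences stayed above 0 under every alternative run. Over all probesets 49 were called with the pig as a block and 0 without a replicate block (limma, 1885 at an unadjusted p under 0.05), 0 without the filter on dim probesets (limma, 2246 at an unadjusted p under 0.05), 202 with crossed pairs, 96 with quantile normalization and 100 on the log2(signal + 16) scale. Of the 7 genes 1 was called with the block, 0 without the block or the filter (limma, 4 at an unadjusted p under 0.05 in each), 3 with crossed pairs, and 2 with quantile normalization and on the log2(signal + 16) scale. Their median difference of 0.93 was 1.00 with quantile normalization, 0.90 with median centring and 0.85 on the log2(signal + 16) scale. With 1 array left out, where the lone array of a depth is assumed to vary like the others, 0 to 1597 probesets, 0 to 4 of the 7 genes and 0 to 4 pathway genes were called; the medians were 0.74 to 1.12 for the 7 genes and 0.014 to 0.11 for the pathway. IGF2R then ranged from -0.86 to 0.69, IGF2 from -0.59 to 0.0091 and IGFBP6 from -0.36 to 0.83, and IGF2 was 0.14 on another probeset. The cause of these shifts was not tested. Signal over background limits IGF2R and most IGF2 probesets.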
